A study of Mus musculus with 178 samples.

Results

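The genes described here encode the proteins of neutrophil granules and the S100 alarmins. They were chosen by symbol from the count table, 10 of its 55450 genes. Mpo and Elane belong to the primary granules, and Ltf, Camp, Ngp and Lcn2 to the secondary granules. Mmp8 and Mmp9 are grouped here with the tertiary granules, and S100a8 and S100a9 are the alarmins. The choice followed gene names and no rule on measured values, but earlier results of these data were known when it was made.

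Neutrophils build their granules in waves during maturation in the bone marrow. Primary granules are filled at the promyelocyte stage with Mpo (myeloperoxidase, which makes hypochlorous acid) and Elane (neutrophil elastase). Secondary granules follow in myelocytes with Ltf (lactoferrin, which binds iron), Camp (the precursor of the cathelicidin antimicrobial peptide), Ngp (neutrophilic granule protein) and Lcn2 (lipocalin 2, which captures bacterial siderophores). Tertiary granules come last with the matrix protease Mmp9 (gelatinase), and the matrix protease Mmp8 (collagenase) is grouped with them here. S100a8 and S100a9, the subunits of calprotectin, lie in the cytosol and are kept at high mRNA levels in circulating neutrophils. Transcripts of the early granules are therefore usual in marrow precursors and rare in mature blood neutrophils. Lactoferrin and lipocalin 2 are also secreted by glandular and mucosal epithelia.

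Whole blood was sequenced from 45 C57BL/6J mice, 6 to 8 weeks old, that carried 4MOSC1 cells, a syngeneic oral squamous carcinoma line, injected into the tongue or buccal mucosa and that all received anti-PD-1 antibody (clone RMP1-14). Each mouse was bled behind the eye on Day 4, before antibody, and on Days 9, 17 and 24 on treatment, which gave 178 polyA libraries. The study places the first dose after the Day 4 bleed in a figure legend and some days later in its methods. The time on antibody at Day 9 is thus uncertain. The labels divide the mice into 15 responders and 30 non-responders. There was no untreated or tumour-free group, so a change over days cannot be told apart from growth of the tumour, ageing of the mouse or repeated bleeding. Libraries numbered 15 against 29 on Day 4, 15 against 30 on Day 9, 14 against 30 on Day 17 and 15 against 30 on Day 24 (responders against non-responders). One Day 17 library, of non-responder 24, carried labels that disagree on its response.

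Total counts per library ran from 26058944 to 82208651, of which haemoglobin genes took 68.7% to 88% (median 81.2%), leaving 4535309 to 22174654 other counts. TMM scaling factors were lowest, at 0.0848, in non-responder 29 on Day 24, and the next was 0.266. The ear tags of the mice have 4 digits in 18 mice (11 responders, 7 non-responders) and 3 digits in 27 mice (4 responders, 23 non-responders). The response groups are thus unequally spread over these tag series, and results that move with the series are given within each. Levels below are log2 CPM, counts scaled by TMM to a common library size, for 1 gene across libraries, and length-corrected TPM where genes are compared. P-values measure the spread between mice, and in bulk blood fewer cells of a type and less RNA per cell cannot be told apart.

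On the mouse genome (GRCm38) Camp (chr9:109847379-109849617), Ngp (chr9:110419747-110423012) and Ltf (chr9:111019271-111042767) lie within 1 stretch of chromosome 9, with 570 kb between Camp and Ngp and 596 kb between Ngp and Ltf. S100a8 (chr3:90668978-90670035) and S100a9 (chr3:90692632-90695721) are neighbours with 22.6 kb between them, on opposite strands. Mmp8 is at chr9:7558456-7568485, Lcn2 at chr2:32384633-32388252, Mmp9 at chr2:164940780-164955850, Mpo at chr11:87793581-87804413 and Elane at chr10:79886247-79888215. The bases directly before the gene start are shown for Ltf, whose level stood apart from the rest, and for the pairs Camp with Ngp and S100a8 with S100a9, whose levels moved together from mouse to mouse, 5′ to 3′ on the gene's own strand, from RefSeq (GRCm38.p6). Capitals mark a match to the core motif of C/EBP factors (TTGCNNAA) or PU.1 (GAGGAAGT) on either strand, factors known to drive granule genes.

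Ltf (chr9:111019042-111019270, plus strand): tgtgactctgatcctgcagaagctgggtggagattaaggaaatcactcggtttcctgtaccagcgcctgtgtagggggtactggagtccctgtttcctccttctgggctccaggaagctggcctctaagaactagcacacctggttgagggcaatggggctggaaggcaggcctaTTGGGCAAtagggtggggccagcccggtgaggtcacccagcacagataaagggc

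Camp (chr9:109849618-109849706, minus strand): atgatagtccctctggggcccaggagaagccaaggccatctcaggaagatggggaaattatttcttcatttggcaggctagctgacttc

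Ngp (chr9:110419558-110419746, plus strand): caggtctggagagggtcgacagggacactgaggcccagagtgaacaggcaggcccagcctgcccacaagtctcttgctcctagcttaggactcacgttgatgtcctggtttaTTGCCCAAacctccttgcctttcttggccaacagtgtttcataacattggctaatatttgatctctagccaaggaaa

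S100a8 (chr3:90668821-90668977, plus strand): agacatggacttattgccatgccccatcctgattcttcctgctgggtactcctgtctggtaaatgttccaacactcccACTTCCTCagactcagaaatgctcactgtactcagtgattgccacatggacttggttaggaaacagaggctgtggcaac

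S100a9 (chr3:90695722-90695971, minus strand): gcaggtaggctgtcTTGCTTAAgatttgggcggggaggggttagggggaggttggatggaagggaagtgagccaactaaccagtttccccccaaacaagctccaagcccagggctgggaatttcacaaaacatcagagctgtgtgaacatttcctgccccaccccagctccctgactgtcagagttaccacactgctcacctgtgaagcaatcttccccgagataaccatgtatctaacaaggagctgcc

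Of the 9 members matched in the RefSeq promoter table (all but Mmp9), 5 held the C/EBP letters within 250 bases before the start (Ltf, Ngp, Lcn2, Mmp8 and S100a9), against 9.56% of 32851 windows of that length. The PU.1 letters were found in 4 (Mpo, Elane, Mmp8 and S100a8), against 2.44% of windows. The RUNX letters TGTGGTT were found in 0, against 4.4% of windows. A match describes the letters in the window and not binding, and these windows were not tested for enrichment.

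The primary granule genes were close to absent. Mpo had 106 counts over all 178 libraries, with 0 in 120 of them and at most 4 in any, and Elane had 29 counts, with 0 in 156 and at most 5. A count of 0 allows up to 0.0577 CPM of the total count in the median library. Neither gene passed the filter on low counts, so 8 of the 10 members were tested, and neither enters a count below except with no filter. With no filter 9 members were called in non-responders from Day 4 to Day 9, against 29% of genes, so Mpo or Elane was among them.

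Mature neutrophil RNA was present: of 15 marker genes 0 had a median of 0 TPM, and on Day 4 their sum ran from 25.1 through a median of 65.4 to 236 TPM in responders and from 39.7 through 109 to 190 TPM in non-responders. Per length the alarmins stood far above the granule genes among the members. The median over 178 libraries was 167 TPM for S100a9 and 67.4 TPM for S100a8. Mmp9 followed at 6.98 TPM, Lcn2 at 3.37 TPM and Mmp8 at 1.17 TPM. Ltf (0.465 TPM), Ngp (0.42 TPM) and Camp (0.1 TPM) were low, and Mpo and Elane were at 0 TPM. Over all libraries Lcn2 thus stood above the other secondary granule genes among the members, but not everywhere. On Day 9 the 27 mice with 3-digit tags had medians of 6.97 TPM for Ltf and 6.06 TPM for Lcn2. Camp rested on a median of 5 counts per library and Ngp on 51, so their values carry more counting error than those of S100a9, with a median of 5114 counts. From library to library within a group Ltf varied most, with an SD of 1.35 on the log2 CPM scale, against 0.876 for Camp, 0.775 for Ngp and 0.42 to 0.656 for the other 5 tested members.

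**Figure D1:**
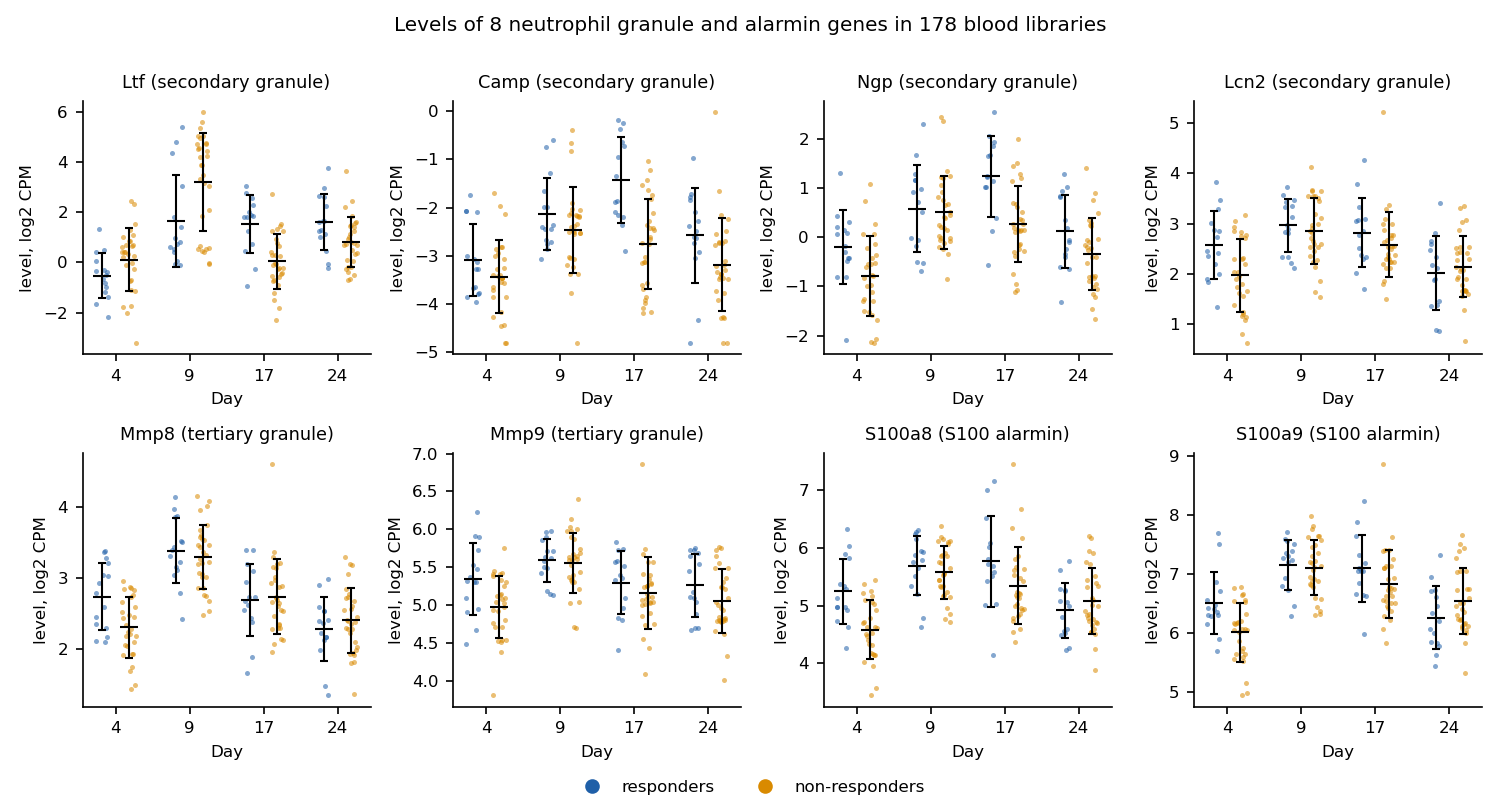
Level of each of the 8 tested genes (log2 CPM, vertical axis) in every library by day (horizontal axis), responders in blue and non-responders in orange; horizontal marks are group means and bars 1 SD. Most genes rise from Day 4 to Day 9, and Ltf is split into a high and a low cloud on Day 9. On Day 17, 1 non-responder is the highest mouse for Lcn2, Mmp8, Mmp9, S100a8 and S100a9. The highest responder comes near it for S100a8 (7.17 against 7.45 log2 CPM).

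From Day 4 to Day 9, every tested member rose in non-responders. Ltf levels in non-responders ran from -3.20 through a median of 0.42 to 2.46 log2 CPM on Day 4 and from -0.08 through 3.87 to 5.97 on Day 9. The rise was seen in all 29 mice with both days, and the 3.61 log2 fold change (SE 0.34, edgeR quasi-likelihood adjusted p = 5.35e-17) is an average over 2 unlike tag series, described below. Camp rose 2.83-fold (log2 SE 0.29, adjusted p = 4.9e-06) and Ngp by 1.44 on the log2 scale (SE 0.21, edgeR adjusted p = 2.69e-09). Ngp was higher on Day 9 in 29 of 29 mice and Camp in 24 of 29. S100a9 went from a median of 6.06 log2 CPM (4.95 to 6.79) to 7.12 (6.32 to 7.98), a log2 fold change of 1.08 (SE 0.14, edgeR adjusted p = 9.45e-11), and was higher in 28 of 29 mice. Its partner S100a8 rose by 0.98 (SE 0.15) and Mmp8 by 1.01 (SE 0.12), again in 28 of 29 mice each. Lcn2 rose by 0.88 (SE 0.18) and Mmp9 by 0.57 (SE 0.11), the smallest change of the 8. The count of 8 of 8 rising stands against 23.3% of the 13009 genes tested that rose, and the median log2 fold change was 1.05 over the members and -0.01 over all genes.

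In responders 5 of 8 members rose over the same interval, against 13.5% of genes. These were Ltf (3.43, SE 0.54, edgeR adjusted p = 3.11e-06, higher in 15 of 15 mice), Camp (1.15, SE 0.39, adjusted p = 0.0199), Ngp (0.93, SE 0.28, adjusted p = 0.0102), Mmp8 (0.67, SE 0.16, adjusted p = 0.00142) and S100a9 (0.61, SE 0.19, adjusted p = 0.011). The log2 fold changes of Lcn2 (0.36, SE 0.23), Mmp9 (0.21, SE 0.14) and S100a8 (0.42, SE 0.21) did not pass. Camp missed the threshold when responder 2 or responder 6 was left out. A smaller change in responders was not shown: the difference of the changes was called for none of the 8 members and for 0% of 13688 genes by edgeR, with an unadjusted p under 0.05 for 719 genes and, among members, for Mmp9, S100a8 and S100a9. On a log2(TPM + 1) scale limma called 0 members in responders and 1.7% of genes.

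**Figure D2:**
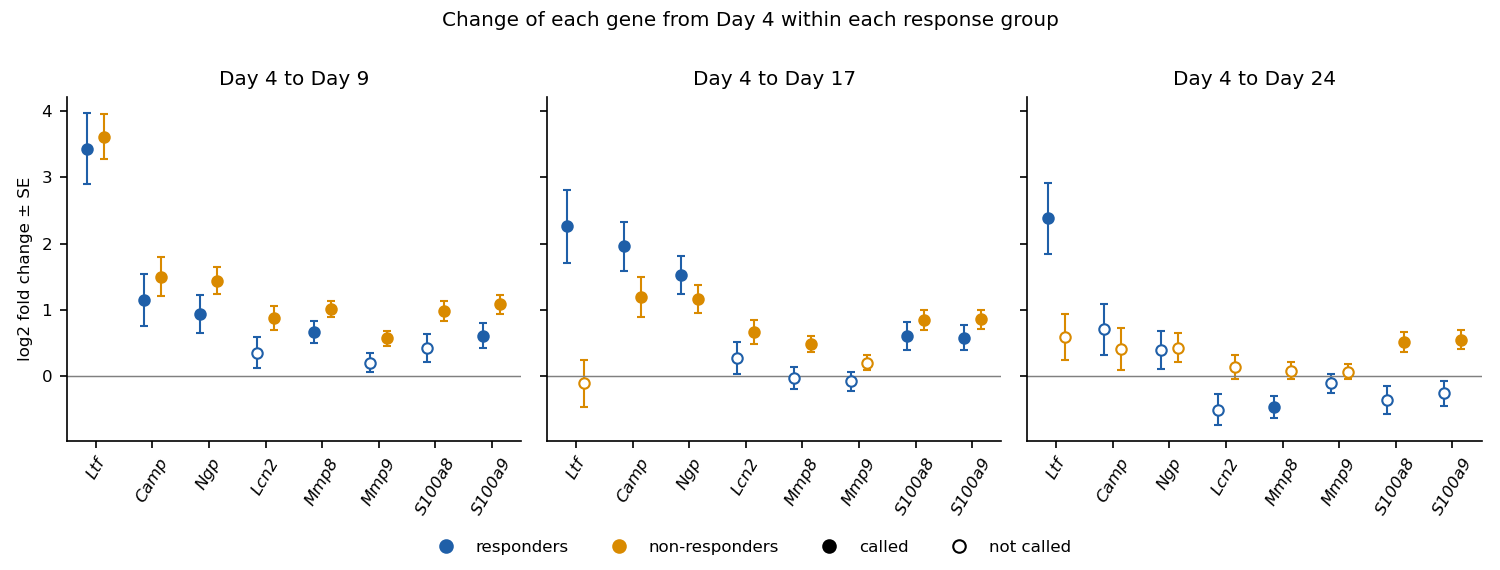
Log2 fold change from Day 4 (vertical axis) of each of the 8 tested genes on Days 9, 17 and 24, for responders (blue) and non-responders (orange), with 1 SE; filled points passed the edgeR adjusted p threshold of 0.05. On Day 9 all 8 non-responder points are filled and lie above 0, and by Day 24 most points lie near 0, with Ltf of responders the highest.

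Ltf did not behave as 1 population of mice on Day 9. Among mice with 3-digit tags its Day 9 level had a median of 4.42 log2 CPM in 23 non-responders (0.47 to 5.97) and of 4.56 in 4 responders (3.02 to 5.38). Among mice with 4-digit tags it was 0.54 in 7 non-responders (-0.08 to 0.64) and 0.62 in 11 responders (-0.11 to 1.80). Of the 27 mice with 3-digit tags 1, non-responder 6, fell within the range of the 4-digit mice. In counts, the 3-digit non-responders had a median of 1236 and a highest value of 5208, and the 4-digit non-responders a median of 62 and a highest value of 98.

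With response in the fit, Ltf was 4.02 log2 units higher in 3-digit than in 4-digit mice on Day 9 (SE 0.36, 16.3-fold, edgeR adjusted p = 1.79e-10), the smallest p of 13139 genes. It was already 1.98 higher on Day 4 (SE 0.30, edgeR adjusted p = 1.05e-05), was lower on Day 17 (-1.67, SE 0.25, adjusted p = 1.51e-06) and on Day 24 the difference was -0.61 (SE 0.39, adjusted p = 0.477). The Day 9 and Day 17 calls were made in responders alone and in non-responders alone too. On Day 4 non-responders alone gave the call and the 1.47 in responders alone did not pass (edgeR adjusted p = 0.0833). Ltf was the only member past both thresholds on any day, 1 of 7 tested on Day 4, 1 of 8 on Day 9 and 1 of 8 on Day 17, where the share of genes called in the same direction was 1.38%, 3.39% and 5.43%. What the series stands for is not given in the labels.

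The course of Ltf over days also differed between the series. From Day 4 it rose by Day 9 in every subgroup, by 3.67 (SE 0.30) in 3-digit and 1.78 (SE 0.40) in 4-digit non-responders, and by 4.11 (SE 0.55) and 1.61 (SE 0.36) in responders. In the 3-digit mice it then fell from Day 9 to Day 17, by 4.61 in non-responders (SE 0.32, edgeR adjusted p = 1.1e-21) and by 4.29 in responders (SE 0.54, edgeR adjusted p = 0.000797). In the 4-digit mice it rose further in responders, by 1.43 (SE 0.32, edgeR adjusted p = 0.00325), and the 1.10 in non-responders did not pass (SE 0.35, edgeR adjusted p = 0.0557). The difference between the series of the change from Day 4 was 2.11 on Day 9 (SE 0.52, edgeR adjusted p = 0.00808), -3.61 on Day 17 (SE 0.51, adjusted p = 8.58e-09) and -2.53 on Day 24 (SE 0.52, adjusted p = 0.00025). Of the other members only Lcn2 differed so, by -1.14 on Day 17 (SE 0.32, edgeR adjusted p = 0.00452). These counts of 1, 2 and 1 of 8 members stand against 8.8%, 25.6% and 17.8% of genes called.

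The level of Ltf was correlated with that of genes outside the neutrophil lists. The non-member genes most correlated with it over 178 libraries, after the mean of each day and response group was removed, were Clca3b (r = 0.867), Krt7 (0.859), Emp1 (0.857), AA467197 (0.849) and Gsto1 (0.848), and these r stayed between 0.698 and 0.765 with the means of the tag series removed as well. Krt7 is a keratin of glandular epithelium. A list of 18 epithelial genes (keratins, Epcam, Cdh1 and others) was drawn up after those genes were seen and includes Krt7, so its levels are a description with no test. Its summed level on Day 9 ran from 2.18 through a median of 8.12 to 57.1 TPM in 3-digit mice and from 0.97 through 2.22 to 3.87 TPM in 4-digit mice. At the median, 2 of the 18 genes in 3-digit mice and 3 in 4-digit mice were at 0 TPM on that day. On the other days the summed medians in 3-digit and 4-digit mice were 4.24 and 2.01 TPM (Day 4), 2.26 and 2.59 (Day 17) and 3 and 3.44 (Day 24). Over all 178 libraries the listed gene Sfn had a median of 1.67 TPM, and the next highest was Krt13 at 0.34 TPM. Sfn can thus make up much of the smaller sums. The part of epithelial RNA in the Ltf values was not tested.

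**Figure D3:**
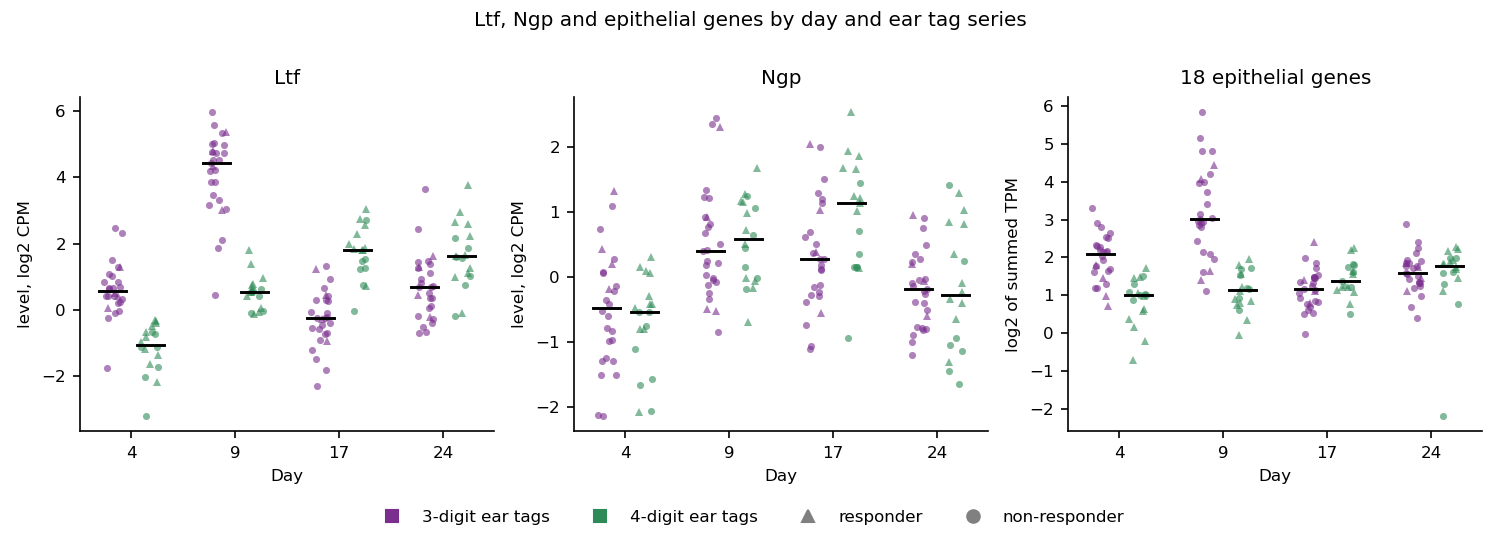
Levels of Ltf and Ngp (log2 CPM) and of the summed 18 epithelial genes (log2 of summed TPM) in every library by day, 3-digit ear tags in purple and 4-digit in green, triangles for responders and circles for non-responders; horizontal marks are medians. On Day 9 the Ltf medians of non-responders are 4.42 with 3-digit and 0.54 with 4-digit tags, while the series overlap throughout for Ngp.

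The Day 4 to Day 9 comparison was also made within each series. In 3-digit non-responders 8 of 8 rose (25.2% of genes rose), and in 4-digit non-responders 3 of 7 tested, Ltf, Ngp and Mmp8 (8.09% of genes). The members not called in these 7 mice had log2 fold changes of 1.23 for Lcn2 (SE 0.45), 1.00 for S100a8 (SE 0.37), 0.98 for S100a9 (SE 0.37) and 0.50 for Mmp9 (SE 0.29), against 0.88, 0.98, 1.08 and 0.57 in all non-responders. In responders the count was 1 of 8, Ltf, in the 4 mice with 3-digit tags (3.61% of genes) and 3 of 8, Ltf, Ngp and Mmp8, in the 11 with 4-digit tags (7.97% of genes). The Ngp changes in these 4 subgroups were 1.39 (SE 0.24), 1.69 (SE 0.37), 0.56 (SE 0.64) and 1.07 (SE 0.29) in that order, all positive.

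By Day 17 the secondary granule genes Camp and Ngp stood further above Day 4 in responders than any member but Ltf. Camp levels in responders went from a median of -3.27 log2 CPM (-3.95 to -1.74) on Day 4 to -1.60 (-2.89 to -0.18) on Day 17. Its log2 fold change was 1.96 (SE 0.37, edgeR adjusted p = 9.44e-05), and that of Ngp was 1.53 (SE 0.28, edgeR adjusted p = 7.26e-05), each higher in 13 of 14 mice. Ltf changed by 2.26 (SE 0.55, adjusted p = 0.00174), S100a8 by 0.60 (SE 0.21, adjusted p = 0.0304) and S100a9 by 0.58 (SE 0.19, edgeR adjusted p = 0.0186). Thus 5 of 8 members rose, against 12.2% of genes. Limma on log2(TPM + 1) kept the calls of Camp and Ngp and lost the other 3, in a fit that called 0.207% of genes. The S100a8 call was lost with the mouse as a block (0.56, adjusted p = 0.0514) and when any of responders 2, 4, 13, 14 or 15 was left out (at the least 0.40, without responder 15), and that of S100a9 without responder 13 or 15. In the 4 responders with 3-digit tags Ltf was at -0.18 (SE 0.57) and none of the 8 was called, in a fit that called 0% of genes.

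In non-responders 6 of 8 members were above Day 4 on Day 17, against 21.9% of genes. Camp (1.20, SE 0.30), Ngp (1.17, SE 0.21), S100a9 (0.86, SE 0.14), S100a8 (0.85, SE 0.15), Lcn2 (0.66, SE 0.18) and Mmp8 (0.48, SE 0.12) passed, with edgeR adjusted p from 2.26e-07 for S100a9 to 0.00134 for Lcn2. Mmp9 (0.20, SE 0.11) and Ltf (-0.11, SE 0.35) did not. On log2(TPM + 1), where the median of all genes was at -0.14, limma kept the call of Ngp (0.23) and lost the other 5, while calling 62.3% of genes in either direction. Lcn2 was at 0.36 in 3-digit non-responders (SE 0.18, edgeR adjusted p = 0.0792) and 1.65 in 4-digit ones (SE 0.45, edgeR adjusted p = 0.0168), and at 0.40 in all when non-responder 29 was left out. The Ltf value hides opposite series, with -0.94 in 3-digit and 2.88 in 4-digit non-responders, both past the threshold. Between Day 9 and Day 17 non-responders had 3 members falling, against 16.2% of genes: Ltf by 3.72 (SE 0.34, edgeR adjusted p = 9.24e-16, the second smallest p of all genes), Mmp8 by 0.53 (SE 0.12) and Mmp9 by 0.37 (SE 0.11). Without non-responder 29 the count was 5, as Lcn2 and S100a9 were added. In the 3-digit non-responders alone Lcn2 and S100a9 fell too, 5 of 8 against 17.4% of genes. In responders Mmp8 alone fell, by 0.70 (SE 0.17, edgeR adjusted p = 0.00683, lower in 13 of 14 mice), against 3.68% of genes. On log2(TPM + 1) limma called all 8 members lower in non-responders, where it called 41.8% of genes in either direction and the median of all genes was at -0.12, and 0 in responders, where it called 0.191% of genes.

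Between Day 17 and Day 24 several members fell, and Ltf and Mmp9 were not among them in either group. In responders 5 of 8 fell, against 9.31% of genes: Camp by 1.25 (SE 0.34), Ngp by 1.13 (SE 0.27), S100a8 by 0.97 (SE 0.22), S100a9 by 0.84 (SE 0.19) and Lcn2 by 0.78 (SE 0.24), with edgeR adjusted p from 0.000784 for S100a8 to 0.0148 for Lcn2. Camp and Ngp were each lower in 13 of 14 mice. In the 4 responders with 3-digit tags none of the 5 was called, in a fit that called 0.0394% of genes lower, at -0.998 for Camp (SE 0.71), -0.79 for Ngp (SE 0.62), -0.71 for S100a8 (SE 0.33), -0.50 for S100a9 (SE 0.30) and -0.06 for Lcn2 (SE 0.39). Limma on log2(TPM + 1) called none of them and 0.406% of genes. Lcn2 lost its call without responder 13 or 15, and Mmp8 gained one with the mouse as a block (-0.45, edgeR adjusted p = 0.0446). In non-responders 4 of 8 fell, against 11.3% of genes: Camp by 0.78 (SE 0.29, adjusted p = 0.0427), Ngp by 0.74 (SE 0.21, adjusted p = 0.00577), Lcn2 by 0.52 (SE 0.18, adjusted p = 0.025) and Mmp8 by 0.40 (SE 0.12, edgeR adjusted p = 0.0141). Limma on log2(TPM + 1) called 0 of these 4 and 4.22% of genes. In 3-digit non-responders only Ngp of the 4 was called lower (-0.64, edgeR adjusted p = 0.0485), with Lcn2 at -0.25 (adjusted p = 0.345), and in 4-digit ones none was, at -1.19 for Ngp (SE 0.39) and -1.41 for Lcn2 (SE 0.46). The Camp call held in 16 of 30 fits that each left out 1 mouse and was lost with the block (-0.66, edgeR adjusted p = 0.0905), and Lcn2 was at -0.29 and not called without non-responder 29. In the 3-digit non-responders Ltf rose over this interval, by 1.17 (SE 0.33, edgeR adjusted p = 0.00813).

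At Day 24 few members were above their Day 4 level, and Ltf in mice with 4-digit tags was the main exception. In non-responders S100a8 (0.51, SE 0.15, edgeR adjusted p = 0.00333) and S100a9 (0.55, SE 0.14, adjusted p = 0.000765) were above Day 4, 2 of 8 members against 23.8% of genes, so the share of members called was near that of all genes. With the mouse as a block Ngp joined them (0.43, edgeR adjusted p = 0.0343). In responders Ltf was above Day 4 (2.38, SE 0.54, edgeR adjusted p = 0.00224), 1 of 8 against 7.44% of genes, and Mmp8 below it (-0.46, SE 0.17, adjusted p = 0.0466), 1 of 8 against 9.94% of genes. Ltf was at 3.08 in the 11 responders with 4-digit tags (SE 0.34, edgeR adjusted p = 1.23e-08) and at 2.72 in the 7 such non-responders (SE 0.39, edgeR adjusted p = 4.6e-05), where its Day 9 changes had been 1.61 and 1.78. In mice with 3-digit tags it was at 0.34 in responders and 0.23 in non-responders, neither called. The Mmp8 call held in only 5 of 15 fits that each left out 1 responder. Limma on log2(TPM + 1) called 0 members from Day 4 to Day 24 in either group, with 0.112% of genes called in responders and 70.4% in non-responders.

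The next question is whether the groups differed on a given day. Before antibody, on Day 4, S100a8 was higher in responders. Its level ran from 4.27 through a median of 5.13 to 6.33 log2 CPM in 15 responders and from 3.45 through 4.62 to 5.45 in 29 non-responders. The groups overlapped over much of their ranges. The log2 fold change was 0.70 (SE 0.16, 1.63-fold, edgeR adjusted p = 0.00356), the only call among 7 tested members (Camp was too low), against 3.91% of genes called higher. S100a9 (0.53, SE 0.16, adjusted p = 0.0279) and Mmp8 (0.45, SE 0.14, edgeR adjusted p = 0.031) passed on p and stayed under 1.5-fold. Ltf had the opposite sign, at -0.93 (SE 0.36, edgeR adjusted p = 0.117), and was at 0.16 with the tag series in the fit. Leaving out non-responder 17, non-responder 22 or responder 15 added Lcn2 to the calls, and leaving out non-responder 18 added Ngp. With the tag series as a covariate 4 members were called, S100a8 among them, against 4.91% of genes.

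The S100a8 difference was not called in the fits on TPM, which changed the scaling and the test at once. On log2(TPM + 1), where the median of all genes was itself shifted by -0.27 between the groups, limma gave -0.18 (adjusted p = 0.451). Within the series the TMM-scaled difference was 0.65 in 3-digit mice (edgeR adjusted p = 0.223) and 0.89 in 4-digit mice (adjusted p = 0.165), with 0 genes called in either, and with the series as a covariate it was 0.80 (adjusted p = 0.00972). The call was kept in all 44 fits without 1 mouse. The Wilcoxon test on TPM did not call S100a8, while calling another member and 72.2% of genes. Red cell genes moved the same way, 3 of 6 higher in responders on Day 4 and 6 of 6 on Day 9, and they made up a median of 951000 TPM in responders and 932000 TPM in non-responders on Day 4. With the haemoglobin genes removed before scaling the S100a8 difference was 0.70 (edgeR adjusted p = 0.00393). DESeq2 with its own size factors also called S100a8, as 1 member against 4.45% of genes.

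On Day 9 none of the 8 members differed between responders and non-responders by edgeR at both thresholds, against 3.65% of genes called. The only member with an unadjusted p under 0.05 was Ltf, at -1.12 (SE 0.55, adjusted p = 0.188), and over all genes 3163 had such a p. That Ltf value turned to 0.23 with the tag series in the fit (edgeR adjusted p = 0.817) and was 0.14 and 0.37 within the 3-digit and 4-digit mice. Without responder 2, the responder with the highest Ltf level on Day 9, it was -1.66 and called (edgeR adjusted p = 0.0346). S100a8 stood at 0.13 (SE 0.14), S100a9 at 0.03 (SE 0.14), Ngp at 0.10 (SE 0.26) and Camp at 0.31 (SE 0.33). On log2(TPM + 1), where the median of all genes shifted by -0.26, limma called 4 members lower in responders. It called 6.26% of genes in either direction. The members were Ltf (-1.35), S100a9 (-0.74), S100a8 (-0.67) and Mmp9 (-0.60). The last 3 had the opposite sign by edgeR, and the 2 fits differ in scaling, transform and test.

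On Day 17 the 3 least abundant secondary granule genes among the members were higher in responders. Ltf levels ran from -0.93 through a median of 1.83 to 3.04 log2 CPM in 14 responders and from -2.28 through -0.09 to 2.72 in 30 non-responders. Camp ran from -2.89 through -1.60 to -0.18 against -4.19 through -2.69 to -1.03, and Ngp from -0.57 through 1.23 to 2.54 against -1.11 through 0.17 to 2.00. In each case the medians were well apart and the ranges overlapped. The log2 fold changes were 1.42 for Ltf (SE 0.31, edgeR adjusted p = 0.02), 1.42 for Camp (SE 0.32, adjusted p = 0.02) and 0.97 for Ngp (SE 0.24, edgeR adjusted p = 0.0281), 3 of 8 members against 0.224% of genes called higher. Lcn2 of the same granules (0.19, SE 0.24), Mmp8 (-0.08, SE 0.17), Mmp9 (0.10, SE 0.15), S100a8 (0.44, SE 0.23) and S100a9 (0.23, SE 0.19) were not called.

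Few genes were called on Day 17 at all, 33 of 12520, and the 3 calls were lost in several other fits. With tag series as a covariate 0 members were called, at 0.61 for Ltf (edgeR adjusted p = 0.418), 1.43 for Camp (adjusted p = 0.343) and 0.88 for Ngp (adjusted p = 0.344), and 0 genes passed. So the Ltf estimate was smaller with the series in the fit, while those of Camp and Ngp moved little and lost their calls. Within the 4-digit mice (10 responders, 7 non-responders) the values were 0.69, 1.80 and 1.14, and within the 3-digit mice (4 and 23) 0.45, 1.06 and 0.55, none called. Without responder 13 or responder 15 the count fell to 0, and without responder 14 Ngp was lost and 2 remained. Over all genes, the fits that each left out 1 mouse called from 1 to 114. Limma on log2(TPM + 1) and the Wilcoxon test on TPM called 0 members, and 1 and 0 of 12511 genes. The library with conflicting labels did not decide the calls, which stood with it left out or counted as a responder.

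**Figure D4:**
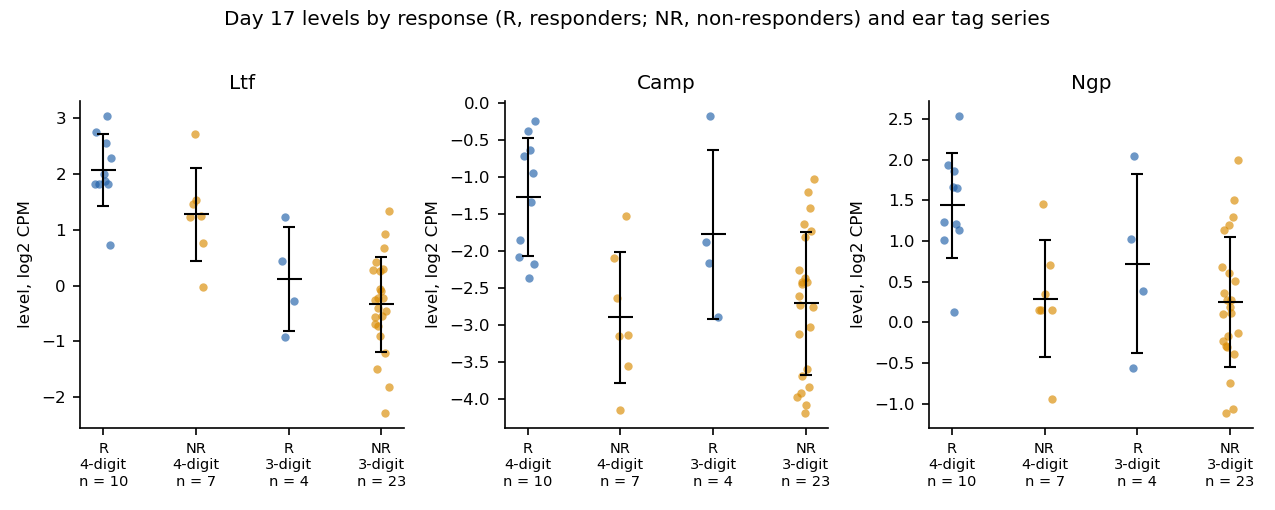
Levels of Ltf, Camp and Ngp (log2 CPM) on Day 17 by response (R, responders; NR, non-responders) and ear tag series, 1 point per mouse, with the mean and 1 SD. Ltf separates by series more than by response, and for Camp and Ngp the responder means lie above the non-responder means in both series.

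On Day 24 none of the 7 tested members differed between the groups at both thresholds by edgeR, against 0.297% of genes called, with an unadjusted p under 0.05 for Ltf (0.83, SE 0.33, adjusted p = 0.0971) and Ngp (0.58, SE 0.22, adjusted p = 0.0787) and for 3032 genes in all. Without the Day 24 library of non-responder 29, or without non-responder 15, Ngp was called, and without non-responder 5 Ltf was.

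From Day 4 to Day 24 the alarmins rose in non-responders and did not pass the test in responders. S100a8 was at -0.37 in responders (SE 0.21, edgeR adjusted p = 0.226), lower in 11 of 15 mice, and at 0.51 (SE 0.15) in non-responders, higher in 20 of 29. S100a9 in responders was at -0.26 (SE 0.19, edgeR adjusted p = 0.35). The difference of these changes was -0.88 (SE 0.26, edgeR adjusted p = 0.0351), and for S100a9 it was -0.81 (SE 0.24, adjusted p = 0.0349), 2 of 8 members against 2.1% of genes called lower. Both calls went with the mouse as a block (-0.83, edgeR adjusted p = 0.0718 for S100a8 and -0.76, adjusted p = 0.0608 for S100a9), and both went without the Day 24 library of non-responder 29 (edgeR adjusted p = 0.0659 and 0.068). They held in 37 of 45 and 34 of 45 fits that each left out 1 mouse. Lost calls came from leaving out non-responder 14 or 29 or responder 2, 6, 8, 9, 10 or 14 for both genes, and non-responder 6 or responder 5 or 12 for S100a9. On log2(TPM + 1), where the median of all genes moved by 0.19, the differences were -0.08 and -0.05. With series and its interaction with day in the fit, 1 member was called for the Day 24 difference, against 9.55% of genes. Fits with no filter called 1, against 0.852%, and DESeq2 called 3, against 6.39%. For Day 17 the difference of the changes was called for none of the 8 by edgeR, against 0.351% of genes, with an unadjusted p under 0.05 for Ltf (2.36, SE 0.66, adjusted p = 0.085) and Mmp8 (-0.52, SE 0.22, adjusted p = 0.4) and for 1401 genes, and DESeq2 called Ltf (adjusted p = 0.0175), as did edgeR without non-responder 29 or responder 1, 2 or 3 (values from 2.50 to 2.60). With series and its interaction with day in the fit that Ltf difference was 0.50 (edgeR adjusted p = 0.641).

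From mouse to mouse the members fell into blocks that were not wholly separate. Pearson correlations of log2 CPM were computed for 28 pairs on each of 4 days, 112 relations, with two-sided permutation p adjusted over all of them, and 72 were positive and 0 negative at an adjusted p of 0.05. Lcn2, Mmp8, Mmp9, S100a8 and S100a9 were correlated in all 10 pairs on every day, with r from 0.777 to 0.944 on Day 4 (44 mice), 0.695 to 0.957 on Day 9 (45 mice), 0.65 to 0.956 on Day 17 (44 mice) and 0.572 to 0.962 on Day 24 (45 mice). Within responders alone these r lay between 0.37 and 0.953 over the 4 days, and within the 3-digit mice between 0.433 and 0.983. S100a8 with S100a9, which share a protein complex and a locus, gave 0.944 to 0.962. Camp with Ngp formed a second block, with r of 0.632, 0.8, 0.749 and 0.767 on Days 4, 9, 17 and 24. Between the blocks r was lower, with a median from 0.141 on Day 9 to 0.417 on Day 17. Of the 10 pairs between them 5, 2, 6 and 8 were past the threshold on Days 4, 9, 17 and 24. Ngp stood nearer to the first block than Camp did. On Day 4 its r with those genes ran from 0.433 (S100a9) to 0.587 (Lcn2), and that of Camp from 0.127 (Mmp9) to 0.25 (S100a8). Without the 2 mice farthest from the median, 68 relations were past the threshold, and in responders alone (14 mice on Day 17, 15 on the other days) 44.

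Over all mice of a day, Ltf was correlated with other members on Day 17 alone. On Days 4, 9 and 24 the count was 0 of the other 7 members, with r between -0.188 and 0.285. These r mix tag series whose Ltf levels differ, and on Day 4 the 26 mice with 3-digit tags gave r of 0.37 to 0.581 with Lcn2, Mmp8, Mmp9, S100a8 and S100a9, while the 18 mice with 4-digit tags gave -0.125 to 0.109. For Camp and Ngp the order was the other way on Day 4, with r of -0.0951 and 0.236 in 3-digit mice and 0.629 and 0.374 in 4-digit mice. On Day 17 it was correlated with all 7, at r from 0.375 to 0.756. The highest was Ltf with Ngp (r = 0.756, Spearman's rho = 0.754, permutation p = 1e-05 for both, the smallest that 100000 resamples can give), which was 0.888 within 27 mice with 3-digit tags, 0.682 within 17 with 4-digit tags and 0.739 without the 2 farthest mice. For Mmp8 and S100a9 the Day 17 relation passed on r and missed on rho (adjusted p = 0.0664 and 0.0556). Since Day 9 levels of Ltf overlapped little between the tag series, its Day 9 values are better read within each series. There r with Ngp was -0.0557 in 27 mice with 3-digit tags and 0.568 in 18 with 4-digit tags.

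**Figure D5:**
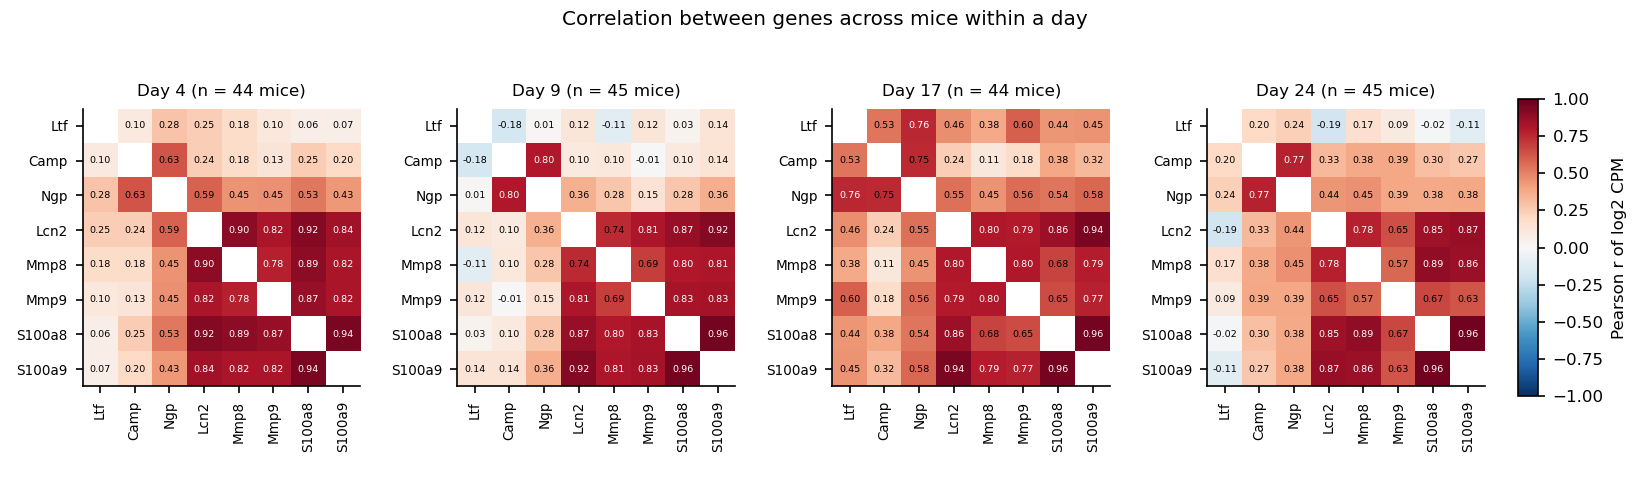
Pearson r of log2 CPM between the 8 tested genes across mice, 1 panel per day, red for positive and blue for negative. The lower right block from Lcn2 to S100a9 is dark red on each day, Camp with Ngp reads 0.63 to 0.80, and the Ltf row is pale except on Day 17.

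The genes most like Mmp8 over the 178 libraries, with the mean of each of the 8 groups removed, were Hp (haptoglobin, r = 0.868), Mcemp1 (0.856), Tpd52 (0.838), Ifitm2 (0.831) and Mtus1 (0.83), and those most like S100a8 were led by Slpi (0.85), the secretory leukocyte protease inhibitor. With tag series means removed too, Hp stood at 0.873 and Slpi at 0.867. For Mpo no such genes were sought, as it failed the filter.

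Other granule and neutrophil genes, from lists fixed with earlier results known, moved with the members over time. In non-responders from Day 4 to Day 9, 13 of 15 mature neutrophil genes rose (median log2 fold change 1.21, against -0.01 over all genes), among them Mxd1 (1.00), Il1b (1.37, SE 0.13, edgeR adjusted p = 3.87e-17) and Acod1 (3.798, SE 0.345, adjusted p = 7.25e-18), which makes itaconate. Of other secondary granule genes 9 of 10 rose, with Itgam (integrin alpha M) at 0.89, Lyz2 (lysozyme) at 0.76 and Cybb (the NADPH oxidase subunit gp91phox) at 0.50, and of other tertiary and vesicle genes 5 of 5 rose, with the formyl peptide receptor Fpr2 at 1.09, the protease Adam8 at 0.87 and the metal transporter Slc11a1 at 0.72. Among other primary granule genes Prtn3 (proteinase 3) rose by 2.70 (SE 0.26, edgeR adjusted p = 1.14e-16), Ctsc rose by 0.48 and Serpinb1a fell by 0.28. The median of Prtn3 over the libraries of all days and both groups was 0.095 TPM. Of other S100 genes 3 of 5 rose, S100a4 (1.11), S100a6 (0.98) and S100a11 (0.47), and of the transcription factors of granulopoiesis 4 of 7, with Cebpd at 1.02, Cebpa at 0.84 and Spi1, which encodes PU.1, at 0.52.

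Markers of other blood cells moved over the same interval in non-responders: 9 of 10 monocyte genes and 4 of 4 basophil genes rose, while 6 of 6 T cell, 4 of 4 B cell and 5 of 5 platelet genes fell. Over all genes 23.3% rose and 27.5% fell in this interval. The monocyte list summed to 18.3 through a median of 41 to 97 TPM on Day 4 and 35.2 through 68.4 to 204 TPM on Day 9, with 0 of its 10 genes at a median of 0. Monocytes also carry S100a8 and S100a9 mRNA, and their part in the alarmin rise was not tested. In responders 7 of 15 mature neutrophil genes rose and 1 fell, and 4 of 10 monocyte genes rose, where 13.5% of all genes rose and 14.2% fell. From Day 17 to Day 24 in responders 11 of 15 mature neutrophil genes fell and 2 rose, where 9.31% of all genes fell and 9.59% rose (median -0.81 over the list, -0.02 over all genes). Between responders and non-responders on Day 17, where 0.264% of all genes were called, 0 of these 15 genes and 0 of the 10 other secondary granule genes tested were called.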

How the data were processed

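Whole blood RNA was made into polyA libraries with a SMARTer kit. The deposited tables give estimated counts per gene (3.14% of the authors' values were not whole and were rounded here) and TPM, both made by the authors and per the submitters' notes with STAR on mm10. The aligner's version, the counter and the annotation are not given in the sources used here. Haemoglobin took most counts, so depth for other genes was lower than the totals.

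Groups came from the sample labels. Low counts were filtered with edgeR's filterByExpr in each fit, libraries were TMM-scaled, and the quasi-likelihood test was run over all genes passing (edgeR 4.0.16, R 4.3.3, Benjamini-Hochberg). Responders against non-responders were fitted per day (adjusted p of at most 0.05 and at least 1.5-fold) and changes over days per group (adjusted p of at most 0.05). Log2 CPM used a prior count of 2. Alternatives used DESeq2 1.42.0, limma 3.58.1 on log2(TPM + 1), a Wilcoxon test on TPM, no filter, haemoglobin genes removed before scaling, calls with and without the fold threshold, the library with conflicting labels left out or moved, tag series, the mouse as a block and each mouse left out. The same mouse gave all its days. Over all genes passing the filter, a mouse's deviations from group means correlated little between days on average (mean r over mice -0.0495 to 0.0966). Single mice ran from -0.391 to 0.44. Such values are not given for single members, and Ltf differed between the tag series on several days. The Day 4 fit of responders against non-responders was tested on simulated data, and the other fits were not.

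Genes named beside the members were those most correlated with Ltf, Mmp8 and S100a8 (5 each) and, in each list, the 3 called genes with the smallest p in non-responders from Day 4 to Day 9. The text names the latter for lists of granule, S100, transcription factor and mature neutrophil genes, in that comparison, and gives the other lists as counts. For Mpo none were sought, as it failed the filter. The members and lists were chosen with earlier results of these data known, and the epithelial list and the splits of changes over days by tag series were added after values had been seen.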

Additional observations from a re-analysis of the deposited data

Results flagged for a closer look

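The changes from Day 4 to Day 24 differed between responders and non-responders for S100a8 (-0.8824, log2 units) and S100a9 (-0.8124) by a test of that difference. Both calls were lost with the mouse as a block (edgeR adjusted p = 0.0718 and 0.0608) and with the Day 24 sample of non-responder 29 dropped (edgeR adjusted p = 0.0659 and 0.068). The changes of Ltf from Day 4 differed between mice with 3-digit and 4-digit ear tags by 2.105 on Day 9, -3.605 on Day 17 and -2.531 on Day 24, and that of Lcn2 by -1.137 on Day 17.

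Groups of 4 to 10 mice were examined for each gene, 72 combinations of a gene and a group. In 7 of them 1 mouse lay far from the rest by Dixon's ratio of its gap to the group's whole range. Chance alone marks about 1 in 20 separate groups, but these 72 share mice and correlated genes, so that rate does not apply directly. Non-responder 29 accounted for 5 of the 7, as the highest of 7 non-responders with 4-digit tags on Day 17. Its ratio was 0.781 for Lcn2 (5.21 log2 CPM, next 2.55), 0.647 for Mmp8 (4.59, next 3), 0.785 for Mmp9 (6.86, next 5.4), 0.625 for S100a8 (7.45, next 5.64) and 0.759 for S100a9 (8.86, next 6.74). The Day 24 library of the same mouse had the lowest TMM factor of all. Responder 1 was the lowest of 4 responders with 3-digit tags on Day 17 for Mmp8 (ratio 0.901, 1.66 log2 CPM, next 2.62), and responder 11 the lowest of 10 responders with 4-digit tags on Day 17 for Ltf (ratio 0.472, 0.723, next 1.82). The causes of these values were not tested.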

How the results depend on the processing

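Of 1199 values of members under alternative settings 1053 kept their call and its direction or were uncalled in both fits, 107 were no longer called, 25 were newly called and 14 reversed. Of 4215 values with 1 mouse left out 62 lost their call, 25 gained one and 0 reversed. Over both kinds of fit 124 values that were never called changed sign. Splits of changes over days by tag series, series contrasts in 1 response group and fits that dropped non-responder 29 on Day 24 were chosen after seeing the data. Camp, Ngp and Ltf are limited by depth most, and the causes of the changes below were not tested.

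Counts of members called between responders and non-responders moved as follows. Here and in the next paragraph, percentages in brackets give the share of all genes called in the same fit. On Day 4 (1) they were 0 in either tag series (0%) and 3 by adjusted p alone (7.42%). They were 0 by limma on log2(TPM + 1) (8.03%), 2 with no filter (2.34%) and 4 with series as a covariate (4.91%). The Wilcoxon test on TPM gave 1 (72.2%), a member other than S100a8. On Day 9 (0) they were 4 by limma (6.26%) and 6 by the Wilcoxon test (75.5%). On Day 17 (3) they were 0 in 3-digit mice (0.00756%), in 4-digit mice (0%) and by limma (0.00799%). The Wilcoxon test and the series covariate gave 0 too (0% each). On Day 24 (0) it was 1 once non-responder 29 was dropped on that day (0.762%).

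For changes in responders, Day 4 to Day 9 (5) gave 1 in 3-digit mice (6.91%), 3 in 4-digit mice (17.3%) and 0 by limma (1.7%). Day 4 to Day 17 (5) gave 0 (0%), 3 (19.8%) and 2 (0.207%) in the same order. Day 4 to Day 24 (2) gave 0 (0%), 1 (4.09%) and 0 (0.112%), and 1 with the fold threshold (3.15%). Day 9 to Day 17 (1) gave 2 in 4-digit mice (Mmp8 lower, Ltf higher, 5.42%) and 0 by limma (0.191%). Day 17 to Day 24 (5) gave 0 in 3-digit mice (0.0394%) and 0 by limma (0.406%). For changes in non-responders, Day 4 to Day 9 (8) gave 3 in 4-digit mice (14.3%), and Day 4 to Day 17 (6) gave 1 by limma (62.3%). Day 4 to Day 24 (2) gave 1 in 4-digit mice (3.96%), 0 with the fold threshold (6.03%) and 0 by limma (70.4%). Day 9 to Day 17 (3) gave 5 in 3-digit mice (26.3%) and 0 in 4-digit mice (6.39%). It gave 1 with the fold threshold (4.27%) and 8 by limma (41.8%). Day 17 to Day 24 (4) gave 2 in 3-digit mice (Ngp lower, Ltf higher, 14.9%) and 0 in 4-digit mice (8.47%). It gave 2 with the fold threshold (3.15%), 0 by limma (4.22%) and 2 with no filter (8.81%). The difference of changes on Day 17 (0) gave 1 by DESeq2 (0.643%). On Day 24 (2) the difference gave 3 by DESeq2 (6.39%), 0 by limma (9.69%) and 1 with no filter (0.852%). It gave 1 with series covariates (9.55%) and 0 with the Day 24 sample of non-responder 29 dropped (1.12%). Correlated pairs (72) numbered 44 in responders alone, and the series difference on Day 4 (1) was 0 in responders alone (0.146%).

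With the mouse as a block 6 of 104 values changed their call: S100a8 in responders to Day 17 (0.56), Mmp8 in responders from Day 17 to Day 24 (-0.45), Ngp in non-responders to Day 24 (0.43), Camp in non-responders from Day 17 to Day 24 (-0.66), and the Day 24 difference for S100a8 (-0.83) and S100a9 (-0.76), so that its count was 0. The block changed no other call.

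Leaving out 1 mouse, members called between the groups ranged from 1 to 2 on Day 4, 0 to 1 on Day 9, 0 to 3 on Day 17 and 0 to 1 on Day 24. Calls over all genes ranged from 337 to 591, 421 to 530, 1 to 114 and 13 to 95 on these days. In responders members called ranged from 4 to 6 (Day 4 to Day 9), 3 to 5 (to Day 17), 1 to 2 (to Day 24), 1 to 1 (Day 9 to Day 17) and 4 to 6 (Day 17 to Day 24), and in non-responders, in that order, 8 to 8, 6 to 6, 2 to 3, 3 to 5 and 3 to 6. Over all genes these were 2880 to 3673, 2420 to 3590, 1245 to 2654, 442 to 779 and 1831 to 2584 in responders. In non-responders they were 6196 to 7037, 5603 to 6426, 5879 to 6618, 3099 to 3921 and 2419 to 2982. The difference of changes gave 0 to 0 members on Day 9, 0 to 1 on Day 17 and 0 to 2 on Day 24, against 0 to 3, 0 to 96 and 70 to 920 genes.

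Directions that reversed were, between the groups, S100a8 on Day 4 by limma (-0.18), and on Day 9 Mmp9 (-0.60), S100a8 (-0.67) and S100a9 (-0.74) by limma and Lcn2 (-0.80), Mmp8 (-0.71), Mmp9 (-0.75), S100a8 (-0.76) and S100a9 (-0.85) by the Wilcoxon test on TPM. Over days they were Ltf in 3-digit responders from Day 4 to Day 17 (-0.18), Ltf in 4-digit responders from Day 9 to Day 17 (1.43), Ltf in 4-digit non-responders from Day 4 to Day 17 (2.88) and from Day 9 to Day 17 (1.10), and Mmp9 there from Day 9 to Day 17 (0.059). On log2(TPM + 1) the median of all genes was itself at -0.27 between the groups on Day 4 and -0.26 on Day 9, at -0.14, -0.16 and -0.12 in non-responders from Day 4 to Day 17, Day 4 to Day 24 and Day 9 to Day 17, and at 0.21 and 0.19 for the differences on Days 17 and 24.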
